A study of Mus musculus with 12 samples.

Results

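The genes described here carry pyruvate and lactate through the liver cell, and they were followed in mice that ran after a meal. They are 10 of the 17432 genes in the deposited table, chosen by name: the pyruvate dehydrogenase kinase genes Pdk1, Pdk2 and Pdk4, the phosphatase gene Pdp2, the enzyme subunit genes Pdha1 and Pdhb, the mitochondrial pyruvate carrier genes Mpc1 and Mpc2, the lactate dehydrogenase gene Ldha and the monocarboxylate transporter gene Slc16a1. Liver RNA was sequenced from 6 mice labelled Sedentary and 6 labelled Exercise. All 12 were wild-type (WT) C57BL/6J males of 8 to 10 weeks on standard chow, and all had 3 days of daytime feeding with short daily sessions on the treadmill. On the day of the experiment they were refed for 3 h and food was then taken away. The Exercise mice ran at 14 m/min for 3 h, the Sedentary mice rested, and all livers were collected at the same time. No mouse was genetically altered, and because food was removed from both groups, the comparison is between running and resting after a meal and not between feeding and fasting.

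Pyruvate reaches the mitochondrion through the carrier formed by MPC1 and MPC2, and the pyruvate dehydrogenase complex then converts it to acetyl-CoA. The kinases PDK1 to PDK4 switch the complex off by phosphorylating its subunit PDHA1, and the phosphatases PDP1 and PDP2 remove the phosphate. In the liver, a closed complex leaves pyruvate available for glucose synthesis, and Pdk4 is known for its rise in fasting. Lactate made by working muscle enters cells through transporters such as MCT1, the product of Slc16a1, and is turned back into pyruvate by lactate dehydrogenase.

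Exercise decreased the mRNA of Slc16a1 to 0.672 and of Pdk1 to 0.774 of the sedentary level, and no other member passed the test. The 2 called members were 20% of the 10, against 42.4% of all 12344 genes tested with edgeR, of which 21.3% were lower and 21.1% were higher after exercise. This even split holds for TMM scaling, whereas all genes changed were 1767 higher and 3735 lower with library totals alone and 1702 higher and 3714 lower with limma on FPKM. Both called members were lower, and both were without overlap between the groups, as were 22.3% of all genes tested. None of the other 8 members had an unadjusted p under 0.05 in edgeR, where the smallest was 0.0569 for Pdk2, and DESeq2 called the same 2 members. The median log2 fold change (log2FC, Exercise over Sedentary) of the 10 members was 0.06, beside -0.00275 over all genes. The share of members called was thus below the background, so the number of calls does not set these genes apart. All 10 members passed the filter on low counts. Levels are given as CPM, the counts scaled to the library size with trimmed-mean (TMM) factors, values after ± are SDs with n = 6, and each adjusted p is a Benjamini-Hochberg value over all 12344 genes from the quasi-likelihood fit of edgeR.

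Libraries held 18745379 to 19324461 counts. Exercise replicate 3 stood apart, with the highest level of its group in 6 of the 10 members and the lowest in 3. The log2FC without it is therefore given for the members that it moved. Hepatocyte genes dominated every library, with 1797329 to 2281644 counts of Alb (albumin). In the marker list of hepatocytes 4 of 10 genes were called (Tat, Ass1 and Alb higher, Hal lower), and its summed level was 129900 to 176400 CPM in Sedentary and 163000 to 184000 CPM in Exercise. Of the endothelial markers 4 of 7 (Pecam1, Lyve1 and Oit3 higher, Kdr lower) and of the stellate cell markers 2 of 7 (Des and Lrat lower) were called, with summed levels that overlapped (141.6 to 196.8 and 160.2 to 241.6 CPM, and 152.9 to 207.5 and 139.5 to 206.5 CPM). The summed Kupffer cell, cholangiocyte and erythroid markers overlapped as well. Of all genes tested, 42.4% were called. The summed skeletal muscle and fat markers did not overlap, with 2.384 to 3.35 CPM in Sedentary and 0.9367 to 1.587 CPM in Exercise. The muscle genes among them gave few counts, with fewer in Exercise for Acta1, Ckm and Myh4. Acta1 had 8 to 19 counts per library in Sedentary and 0 to 6 in Exercise. Ckm had 2 to 13 and 0 to 3, and Myh4 had 2 to 11 and 0 to 1. Mb, the myoglobin gene, had 2 counts over all 12 libraries. The part of these shifts in the results was not tested. In whole liver, fewer cells of a type and less RNA per cell cannot be told apart.

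Slc16a1 (gene ID 20501; GRCm38 chromosome 3, 104638668 to 104658462, plus strand), which encodes the lactate and pyruvate transporter MCT1, had the largest change of the 10 members. Its level was lowest at 32.4, at a median of 40.0 and highest at 43.6 CPM in Sedentary, and 23.0, 26.0 and 30.4 CPM in Exercise. Each exercised liver was below each sedentary liver. The mean went from 39.0 ± 4.29 to 26.2 ± 2.93 CPM, a fold of 0.672 (95% interval 0.596 to 0.758) and a log2FC of -0.57 (standard error 0.08, adjusted p = 2.99e-05 from edgeR). The exact permutation test gave p = 0.00216 (two-sided), the smallest that 6 mice against 6 allow. Without Exercise replicate 3 the log2FC was -0.62. Counts ran from 440 to 913 per library, and all were whole numbers. Its partner Bsg (basigin), the chaperone that brings MCT1 to the cell surface, moved the other way, from 351 ± 5.06 to 393 ± 22.6 CPM (log2FC 0.16, adjusted p = 0.0182 from edgeR). The call for Bsg was lost when libraries were scaled by their totals alone, where its log2FC was 0.07. Slc16a7, which encodes the related transporter MCT2, was at 63.8 ± 9.53 and 68.3 ± 9.15 CPM and was not called (named after its value was seen, log2FC 0.10, adjusted p = 0.454 from edgeR). Slc16a3, a further transporter gene of the list, and Emb, the second chaperone gene, had too few counts to test.

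Pdk1 (gene ID 228026, GRCm38 chromosome 2, 71873224 to 71903858, plus strand) was the only pyruvate dehydrogenase kinase gene called among those tested. Its levels ran from 68.2 through a median of 73.3 to 87.5 CPM in Sedentary and from 56.4 through 57.9 to 61.5 CPM in Exercise, with every exercised liver below every sedentary one. Mean levels were 75.7 ± 7.62 and 58.6 ± 2.20 CPM, a fold of 0.774 (95% interval 0.705 to 0.849) and a log2FC of -0.37 (standard error 0.06, adjusted p = 0.000156 from edgeR). The exact permutation p was 0.00216 (two-sided). The exercised livers lay close together, with a coefficient of variation of 3.76% against 10.1% in Sedentary. Without Exercise replicate 3 the log2FC was -0.36. The counts of Pdk1 were fractional in all 12 libraries, as RSEM gives where it divides shared reads by estimate.

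Pdk2 (gene ID 18604; GRCm38 chromosome 11, 95026258 to 95041354, minus strand), the main kinase gene of the liver in these libraries, was not called. Its levels were 104.7, 106 and 113 CPM (lowest, median, highest) in Sedentary and 106, 116 and 121 CPM in Exercise, so that the groups overlapped. The log2FC was 0.10 (95% interval -0.00 to 0.21, adjusted p = 0.112 from edgeR). The exact permutation test of this gene alone gave p = 0.0152 (two-sided, not adjusted). Among the exercised livers only replicate 3 was as low as the sedentary livers, and without it Pdk2 passed the test (log2FC 0.13, adjusted p = 0.0484 from edgeR). On the scale of library totals, which set the median gene at -0.0985, the log2FC was 0.01. The sign was the same in every setting tried, with 0.00419 as the smallest log2FC. The size and the call are therefore not firm.

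Pdk4 (gene ID 27273; GRCm38 chromosome 6, 5483351 to 5496309, minus strand), the kinase gene best known for its induction by fasting, glucocorticoids and PPARα, was not called. It was the least expressed member, and the most variable of the 10 in Sedentary, with 5.91, 6.93 and 11.3 CPM (lowest, median, highest) in Sedentary and 6.61, 8.66 and 11.5 CPM in Exercise. The ranges lay nearly on top of each other. Means were 7.98 ± 2.33 and 8.81 ± 1.83 CPM, and the log2FC was 0.14 (adjusted p = 0.582 from edgeR), with 0.05 without Exercise replicate 3 and 0.26 without Sedentary replicate 1. The 95% interval of the fold, 0.838 to 1.45, leaves room for a change in either direction. With 116 to 226 counts per library, the spread between mice (coefficient of variation 29.2% in Sedentary and 20.7% in Exercise) set this width.

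**Figure D1:**
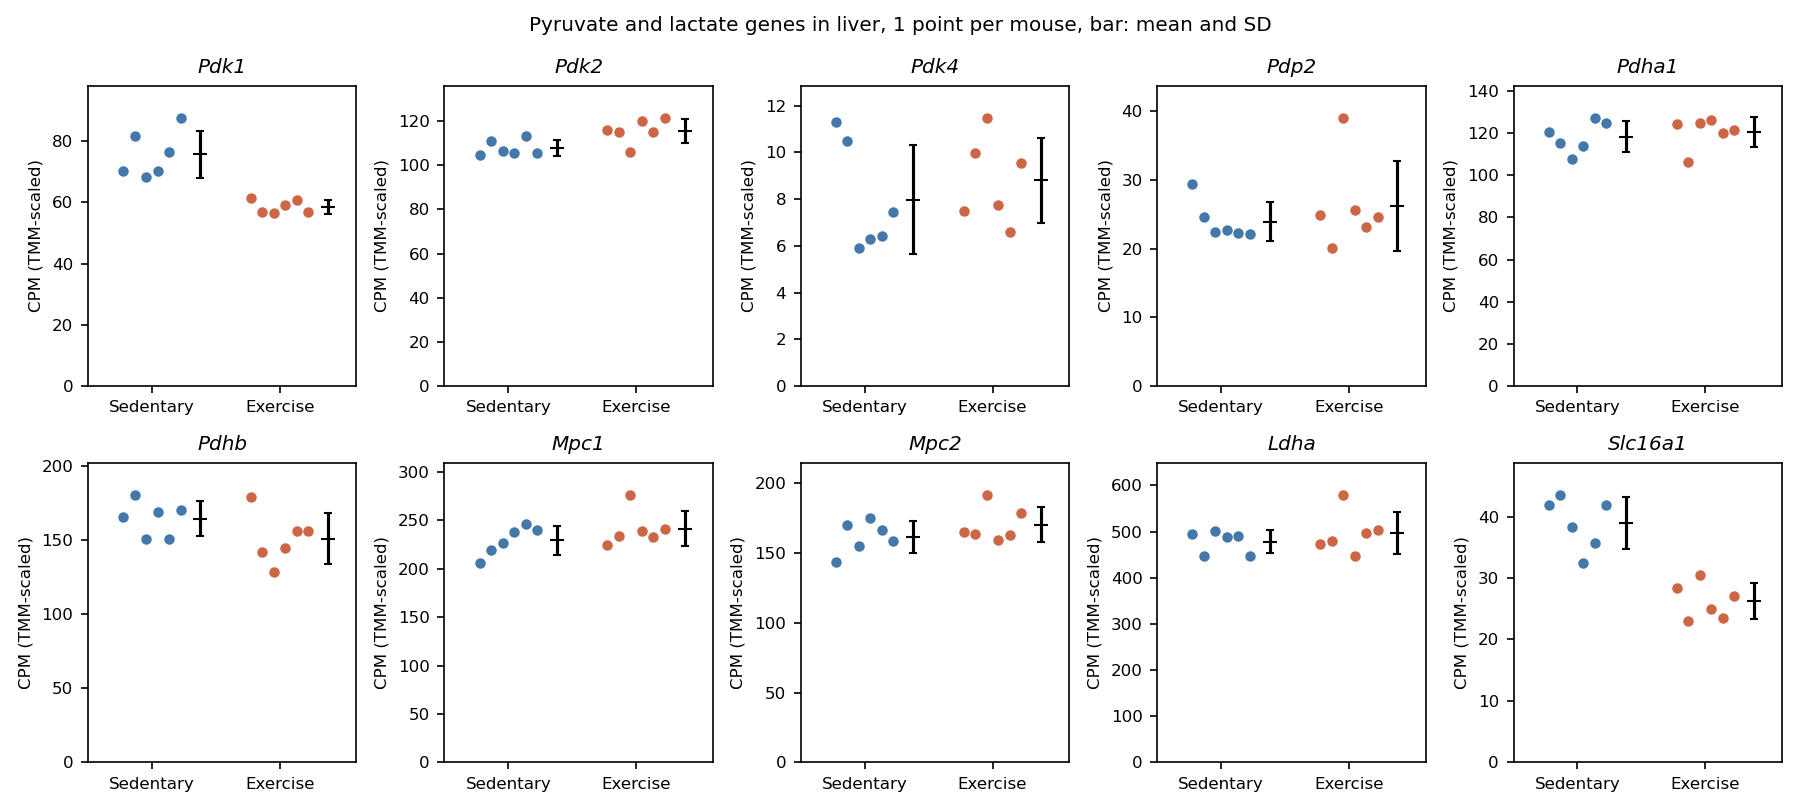
Levels of the 10 member genes in CPM after TMM scaling (vertical axes from 0), 1 point per mouse in replicate order, with the mean and SD beside each group. The groups separate for Pdk1 and Slc16a1, and Exercise replicate 3 is the highest exercised point for Pdk4, Pdp2, Mpc1, Mpc2, Ldha and Slc16a1.

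Because FPKM is divided by transcript length, it allows the kinase genes to be compared with each other. Pdk2 stood at 50.3 ± 2.04 FPKM in Sedentary and 50.6 ± 3.45 FPKM in Exercise, Pdk1 at 18.0 ± 2.02 and 12.7 ± 0.637 FPKM, and Pdk4 at 2.44 ± 0.785 and 2.50 ± 0.483 FPKM. Pdk3 was nearly silent, with 3 to 10 counts per library, and was not tested. The pool of kinase transcripts therefore consisted mostly of Pdk2. The share of Pdk2 was 68.2 to 73.5% in Sedentary and 74.6 to 77.6% in Exercise, and that of Pdk1 was 23.7 to 28.4% and 18.1 to 20.2%, without overlap in either case. Mean shares went from 71.0 ± 2.03 to 76.6 ± 1.09% for Pdk2 and from 25.4 ± 1.66 to 19.3 ± 0.836% for Pdk1 (exact permutation p = 0.00216 for each, 0.00866 after adjustment over the 8 ratios tested). The shares add up to the whole, so these are the same shift seen from both sides. The Pdk4 share, 3.41 ± 0.963 and 3.81 ± 0.887%, did not separate the groups (exact permutation p = 0.455, adjusted 0.586).

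**Figure D2:**
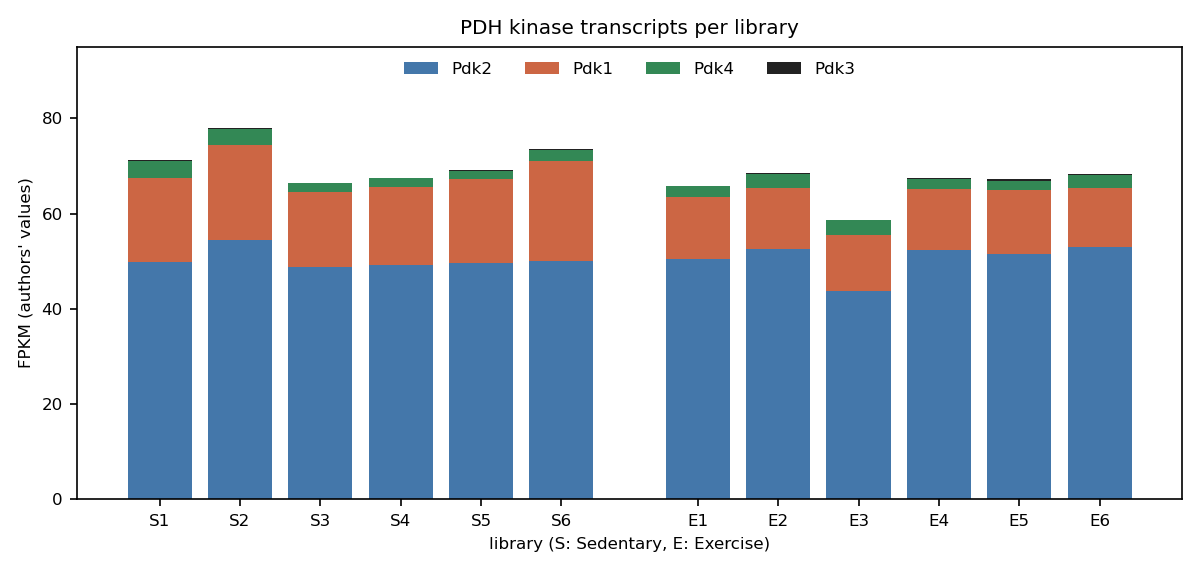
FPKM of the kinase genes Pdk1 to Pdk4, stacked for each of the 12 libraries (S, Sedentary; E, Exercise). Pdk2 fills most of each bar, the Pdk1 segment is shorter in all 6 exercised libraries, and E3 has the lowest sum (58.64 FPKM).

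Summed over the 4 kinase genes, transcripts stood at 71.0 ± 4.24 FPKM in Sedentary and 66.0 ± 3.72 FPKM in Exercise. On the FPKM scale the median gene was lower in Exercise as well, with a log2FC of -0.0932 from limma. Relative to the substrate gene Pdha1, the ratio of kinase transcripts was 1.63 ± 0.0747 and 1.59 ± 0.114 (exact permutation p = 0.513, adjusted 0.586). This difference of -0.0389 became -0.00937 without Exercise replicate 3. The ratio of phosphatase to kinase transcripts was 0.0655 ± 0.00808 and 0.0732 ± 0.0193 (exact permutation p = 0.481, adjusted 0.586), and the difference between the means shrank from 0.00775 to 2.03e-05 without Exercise replicate 3. Kinase transcripts thus outnumbered phosphatase transcripts in every library, at 0.0588 to 0.112 phosphatase per kinase.

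Pdp2 (gene ID 382051; GRCm38 chromosome 8, 104591451 to 104599026, plus strand), a phosphatase that reactivates the complex and is known to be reduced in starvation, was not called. Its levels were 22.1, 22.6 and 29.3 CPM (lowest, median, highest) in Sedentary and 20.1, 24.7 and 39.0 CPM in Exercise. The highest value was Exercise replicate 3, and the sign of the difference rested on it: the log2FC was 0.13 (adjusted p = 0.471 from edgeR) with it and -0.01 without it. Pdp1, the other phosphatase gene, was barely expressed (10 to 33 counts) and not called, with a log2FC of 0.34 (adjusted p = 0.231 from edgeR). Pdpr, which encodes the regulatory subunit of the phosphatase, was higher, at 21.2 ± 4.08 and 26.9 ± 3.00 CPM (log2FC 0.35, adjusted p = 0.0256 from edgeR), with overlap between the groups. The Pdpr call did not hold without Exercise replicate 3 (log2FC 0.30, adjusted p = 0.0545 from edgeR) or Sedentary replicate 3 (0.29, adjusted p = 0.0553 from edgeR).

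The subunit genes of the decarboxylating enzyme did not pass the test. Pdha1 (gene ID 18597; GRCm38 chromosome X, 160122209 to 160138413, minus strand), whose product carries the phosphorylation sites, was at 118 ± 7.23 and 121 ± 7.27 CPM (log2FC 0.03, 95% interval -0.09 to 0.15, adjusted p = 0.740 from edgeR). It overlaps Map3k15 on the other strand, and whether reads were counted by strand was not given in the sources used here. Pdhb (gene ID 68263; GRCm38 chromosome 14, 8165996 to 8173025, minus strand), the partner subunit, ranged from 150.6 to 180.5 CPM in Sedentary and from 128 to 179 CPM in Exercise (log2FC -0.12, 95% interval -0.28 to 0.03, adjusted p = 0.189 from edgeR). Exercise replicate 1 held the high value, and without it Pdhb passed the test (log2FC -0.18, adjusted p = 0.0491 from edgeR), while without Exercise replicate 3 the log2FC was -0.08. The Pdha1 to Pdhb ratio in FPKM was 0.370 ± 0.0354 and 0.413 ± 0.0513 (exact permutation p = 0.123, adjusted 0.268), a difference of 0.043 that became 0.0259 without Exercise replicate 3.

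The carrier genes were abundant, and neither passed the test. Mpc1 (gene ID 55951; GRCm38 chromosome 17, 8282904 to 8297661, plus strand) was at 229 ± 14.9 and 241 ± 18.1 CPM (log2FC 0.07, 95% interval -0.06 to 0.20, adjusted p = 0.358 from edgeR). Mpc2 (gene ID 70456; GRCm38 chromosome 1, 165460637 to 165481214, plus strand) was at 161 ± 11.4 and 170 ± 12.5 CPM (log2FC 0.08, 95% interval -0.05 to 0.21, adjusted p = 0.352 from edgeR). Their products work as a heterodimer, and the Mpc1 to Mpc2 ratio in FPKM was 1.19 ± 0.0705 and 1.19 ± 0.0477. Without Exercise replicate 3 the log2FC was 0.04 for Mpc1 and 0.04 for Mpc2.

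Ldha (gene ID 16828; GRCm38 chromosome 7, 46841475 to 46855627, plus strand), the main lactate dehydrogenase subunit gene, was the most abundant member. It was at 479 ± 24.9 and 497 ± 45.3 CPM (log2FC 0.05, 95% interval -0.08 to 0.19, adjusted p = 0.539 from edgeR). Exercise replicate 3 was the highest at 580.2 CPM, and without it the log2FC was 0.01. Ldhb, the heart-type subunit gene, had 25 to 56 counts and was not called (log2FC -0.23, adjusted p = 0.236 from edgeR). Ldha exceeded Ldhb 164 ± 27.4 times in Sedentary and 199.7 ± 48.9 times in Exercise on the FPKM scale (exact permutation p = 0.134, adjusted 0.268), and the difference of 36.1 became 18.5 without Exercise replicate 3. The files' annotation was not given, and GENCODE lists pseudogenes named after Ldha and Mpc1, so a small part of their reads could be shared.

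Over the 12 libraries, mean FPKM descended in the order Ldha (309), Mpc1 (259), Mpc2 (219), Pdhb (110.2), Pdk2 (50.5), Pdha1 (42.6), Pdk1 (15.4), Slc16a1 (7.49), Pdp2 (4.45) and Pdk4 (2.47). Each gene was above the next in all 12 libraries, except that Slc16a1 was above Pdp2 in 11.

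The members' promoters were searched in the RefSeq windows of GRCm38.p6, from 250 bases before to 50 after a gene's start. The motifs, on both strands, were GTAAACA (forkhead), AGAACA (glucocorticoid receptor half-site), AGGTCA (nuclear receptor half-site), TGACGTCA (cAMP response element), CACGTG (E-box) and ACGTG (core bound by hypoxia-inducible factors), the last of which is contained in CACGTG. They occur in 3.66%, 18.9%, 16.2%, 1.80%, 7.17% and 19.7% of 32544 windows. The 250 bases before the start are shown for the called members and for Ldha, a member that also holds an E-box and was not called, with matches in capitals.
Slc16a1, chr3:104638414-104638663, plus strand: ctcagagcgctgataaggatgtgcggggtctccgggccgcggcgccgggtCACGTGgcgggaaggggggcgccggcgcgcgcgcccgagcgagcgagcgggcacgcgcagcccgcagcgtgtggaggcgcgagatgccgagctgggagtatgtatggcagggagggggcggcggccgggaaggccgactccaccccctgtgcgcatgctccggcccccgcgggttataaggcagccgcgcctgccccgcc
Pdk1, chr2:71872974-71873223, plus strand: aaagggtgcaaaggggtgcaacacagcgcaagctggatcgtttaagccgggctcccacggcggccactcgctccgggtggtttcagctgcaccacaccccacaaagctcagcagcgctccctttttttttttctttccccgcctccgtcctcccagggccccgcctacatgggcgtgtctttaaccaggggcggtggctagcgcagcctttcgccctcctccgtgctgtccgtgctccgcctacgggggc
Ldha, chr7:46845554-46845803, plus strand: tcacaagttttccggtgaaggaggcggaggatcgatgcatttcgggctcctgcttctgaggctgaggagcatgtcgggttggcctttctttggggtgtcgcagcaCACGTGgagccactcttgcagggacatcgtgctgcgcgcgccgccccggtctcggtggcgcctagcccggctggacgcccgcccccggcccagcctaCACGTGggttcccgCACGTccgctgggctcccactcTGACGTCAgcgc
With positions counted from the start (negative before it), Slc16a1 held an E-box at -200 and an ACGTG at 21 (not shown), and Ldha held E-boxes at -145 and -48, a further ACGTG at -34 (reverse strand) and a cAMP response element at -12. The windows of Pdk2 and Pdp2 also held an E-box, at -126 and -219. The printed Pdk1 window, like that of Pdk4, held none of the motifs, and a second Pdk1 window held AGAACA at -153 and -138. All 250 bases before the start of this second window lie in annotated exon sequence of Pdk1 itself. The starts behind the printed Ldha window and the Pdk2 window with the E-box are those of RefSeq and were not found in a GENCODE transcript, and a second window of each gene held no motif. An E-box thus lay in a window of Slc16a1, which was lower, and in windows of Ldha, Pdk2 and Pdp2, which were not called. For Ldha and Pdk2 it lay only in the window whose start was not found in a GENCODE transcript. Whether the motifs bear on the changes was not tested. These letters are a description and not a test of binding.

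Of the wider list of 12 genes for the complex and its regulators, 11 were tested. Called were 3 (27.3%, beside 42.4% of all genes tested), with Pdpr higher and Dlat and Pdk1 lower. The median log2FC of the list was 0.06. Dlat, which encodes the acetyltransferase core of the complex, ranged from 58.3 through a median of 61.4 to 66.6 CPM in Sedentary and from 38.8 through 43.6 to 46.0 CPM in Exercise. The groups were apart, and the fold was 0.699 (95% interval 0.646 to 0.757, log2FC -0.52, adjusted p = 1.22e-06 from edgeR). Dld, the subunit that the complex shares with other dehydrogenases (log2FC 0.06, adjusted p = 0.514 from edgeR), and Pdhx, which anchors it to the core (-0.14, adjusted p = 0.121 from edgeR), were not called. Dlat was thus lower relative to the genes of both decarboxylating subunits, though Pdhb had the same sign as Dlat (log2FC -0.12, not called). Dlat per Pdha1 in FPKM was 0.367 ± 0.0274 in Sedentary and 0.252 ± 0.0104 in Exercise. Dlat per Pdhb was 0.135 ± 0.00724 in Sedentary and 0.104 ± 0.01095 in Exercise. These ratios were chosen after the values were seen and are given without a test.

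**Figure D3:**
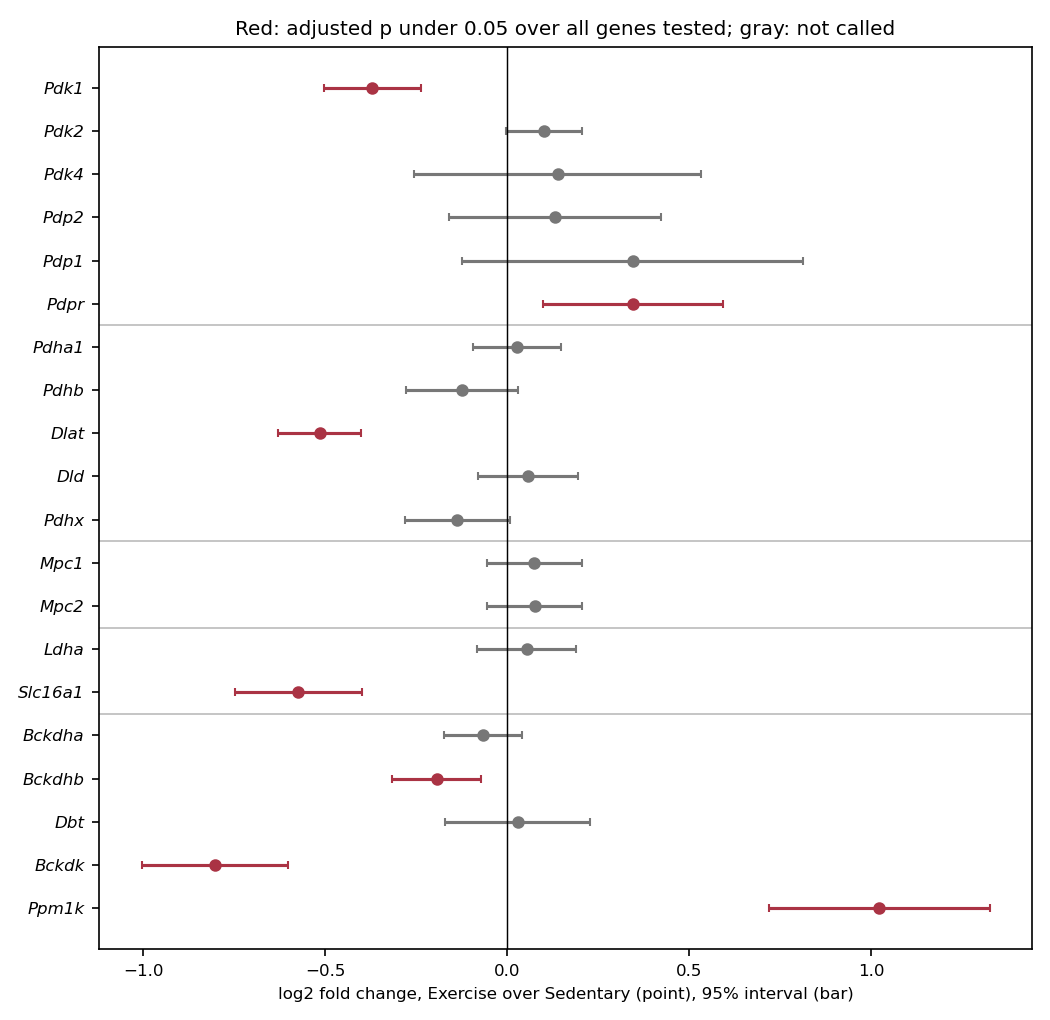
Log2FC, Exercise over Sedentary, with its 95% interval for the members and for the other genes of the pyruvate and branched-chain ketoacid dehydrogenase complexes (red, adjusted p under 0.05). Slc16a1, Dlat and Pdk1 lie below 0 with their whole intervals, and the intervals of Pdk2, Pdk4, Pdp2, Pdha1, Pdhb, Mpc1, Mpc2 and Ldha cross 0.

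The branched-chain ketoacid dehydrogenase is the sister complex that oxidises the carbon of leucine, isoleucine and valine, and it is governed in the same way, by the kinase BCKDK and the phosphatase PPM1K. Of its 5 genes, 3 were called (60.0%, beside 42.4% of all genes tested). Bckdk was lower, with 10.3, 12.9 and 14.6 CPM (lowest, median, highest) in Sedentary and 6.24, 7.22 and 8.10 CPM in Exercise (log2FC -0.80, adjusted p = 4.20e-06 from edgeR). Ppm1k was higher, with 17.9, 24.5 and 33.5 CPM in Sedentary and 38.8, 51.1 and 56.7 CPM in Exercise (log2FC 1.02, adjusted p = 7.71e-05 from edgeR). In both genes every exercised liver was beyond every sedentary liver. Bckdhb was lower by less (log2FC -0.19, adjusted p = 0.0128 from edgeR), and Bckdha (-0.07, adjusted p = 0.312 from edgeR) and Dbt (0.03, adjusted p = 0.836 from edgeR) were not called. Kinase and phosphatase genes of this complex thus moved in opposite directions. For the pyruvate dehydrogenase complex the kinase gene Pdk1 was lower too, and Pdk2, Pdk4, Pdp1 and Pdp2 did not pass the test.

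**Figure D4:**
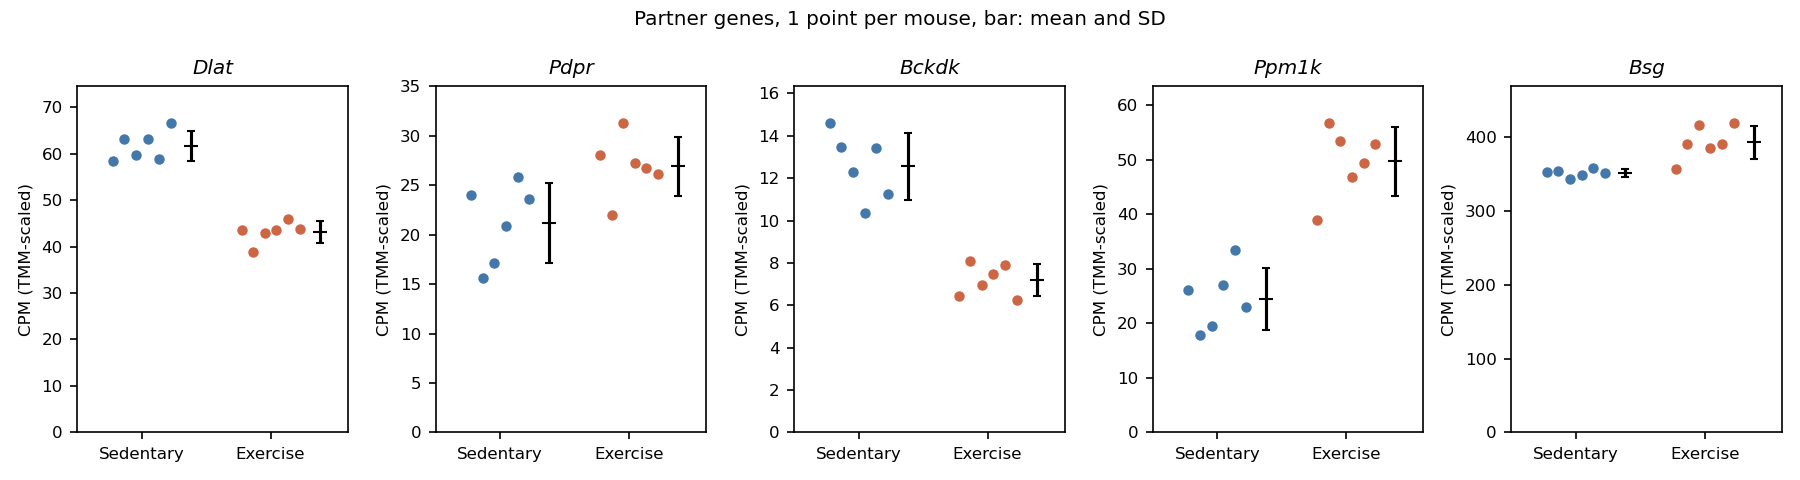
CPM (axes from 0) of Dlat, Pdpr, Bckdk, Ppm1k and Bsg, 1 point per mouse, with the mean and SD beside each group. The groups are apart for Dlat, Bckdk and Ppm1k and overlap for Pdpr and Bsg.

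Around the members, 5 of 14 tested genes of other steps of pyruvate and lactate use were called (35.7%, beside 42.4% of all genes tested). The median log2FC of these 14 was -0.01. Me3, a mitochondrial malic enzyme (0.53, adjusted p = 0.000264 from edgeR), and Gpt2, which interconverts alanine and pyruvate (0.31, adjusted p = 0.000405 from edgeR), rose. So did Sds, which makes pyruvate from serine (0.95, adjusted p = 0.0108 from edgeR), a gene named here after its value was seen, and Bsg. Me1, the cytosolic malic enzyme, was lower (-0.46, adjusted p = 0.0364 from edgeR), with overlap, and this call was lost in 13 other settings, among them the omission of any liver except Sedentary replicates 3 and 5 and Exercise replicate 5. Pcx, which turns pyruvate into oxaloacetate for glucose synthesis, was at 378 ± 36.9 and 410.0 ± 27.2 CPM (log2FC 0.12, adjusted p = 0.180 from edgeR). Pklr, the liver pyruvate kinase gene, was at 500.3 ± 106 and 385 ± 88.1 CPM (log2FC -0.38, adjusted p = 0.104 from edgeR).

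Downstream, 6 of 16 genes of the TCA cycle were called (37.5%, beside 42.4% of all genes tested, with a median log2FC of -0.05). Cs, citrate synthase, which takes up the acetyl-CoA that the complex makes, went from 163 ± 22.0 to 103 ± 9.25 CPM (log2FC -0.66, adjusted p = 7.95e-06 from edgeR). Idh3a, a subunit of isocitrate dehydrogenase, was lower as well (-0.55, adjusted p = 3.28e-05 from edgeR), and Fh1, fumarate hydratase, was higher (0.57, adjusted p = 1.79e-06 from edgeR). The other called genes, named after their values were seen, were Dlst (-0.23), Sdhd (-0.16) and Idh3g (-0.16), and the calls of Sdhd and Idh3g were lost in 5 and 9 other settings.

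Pdk1 and Ldha belong to the genes that hypoxia-inducible factor is known to induce. Of 20 other genes of that kind, 11 were called (55.0%, beside 42.4% of all genes tested), 8 of them higher and 3 lower. The median log2FC of the 20 was 0.11. P4ha1 (1.35, adjusted p = 4.07e-08 from edgeR) and Adm (1.15, adjusted p = 4.51e-05 from edgeR) were among the higher genes, and Egln3 (-0.80, adjusted p = 9.05e-05 from edgeR) and Vegfa (-0.25, adjusted p = 0.00342 from edgeR) were among the lower ones. Called genes of the list thus lay in both directions, with more of them higher. The mRNA of Hif1a itself was not called (-0.07, adjusted p = 0.454 from edgeR), and its protein was not measured here.

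Factors known to act on the kinase genes were called in 10 of 14 cases (71.4%, beside 42.4% of all genes tested), 7 higher and 3 lower. The median log2FC of the 14 was 0.21. Ppargc1a, a coactivator of fasting genes, went from 8.89 ± 2.68 to 32.6 ± 5.01 CPM (log2FC 1.88, adjusted p = 5.09e-06 from edgeR). Foxo1 (1.05, adjusted p = 1.40e-05 from edgeR) and Foxo3 (1.11, adjusted p = 2.43e-08 from edgeR), forkhead factors restrained by insulin, Cebpb (1.34, adjusted p = 8.69e-08 from edgeR) and Ppara (0.42, adjusted p = 0.00414 from edgeR) were higher. Pparg (-0.85, adjusted p = 5.74e-05 from edgeR) and Myc (-1.23, adjusted p = 0.00236 from edgeR) were lower. The other called factors are named after their values were seen. Ppard was lower (-0.84, adjusted p = 0.00291 from edgeR), and Ppargc1b (1.37, adjusted p = 4.68e-06 from edgeR) and Hnf4a (0.59, adjusted p = 4.97e-06 from edgeR) were higher. Exercise replicate 3 was far above the other exercised livers for Ppara and Ppargc1a. With 1 liver left out, the log2FC ranged from 0.315 to 0.468 for Ppara and from 1.78 to 2.01 for Ppargc1a. The glucocorticoid receptor gene Nr3c1 was not called (-0.16, adjusted p = 0.135 from edgeR). Beside these levels, Pdk4, a known target of FOXO, PPARα and the glucocorticoid receptor, stood at 7.98 ± 2.33 and 8.81 ± 1.83 CPM.

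**Figure D5:**
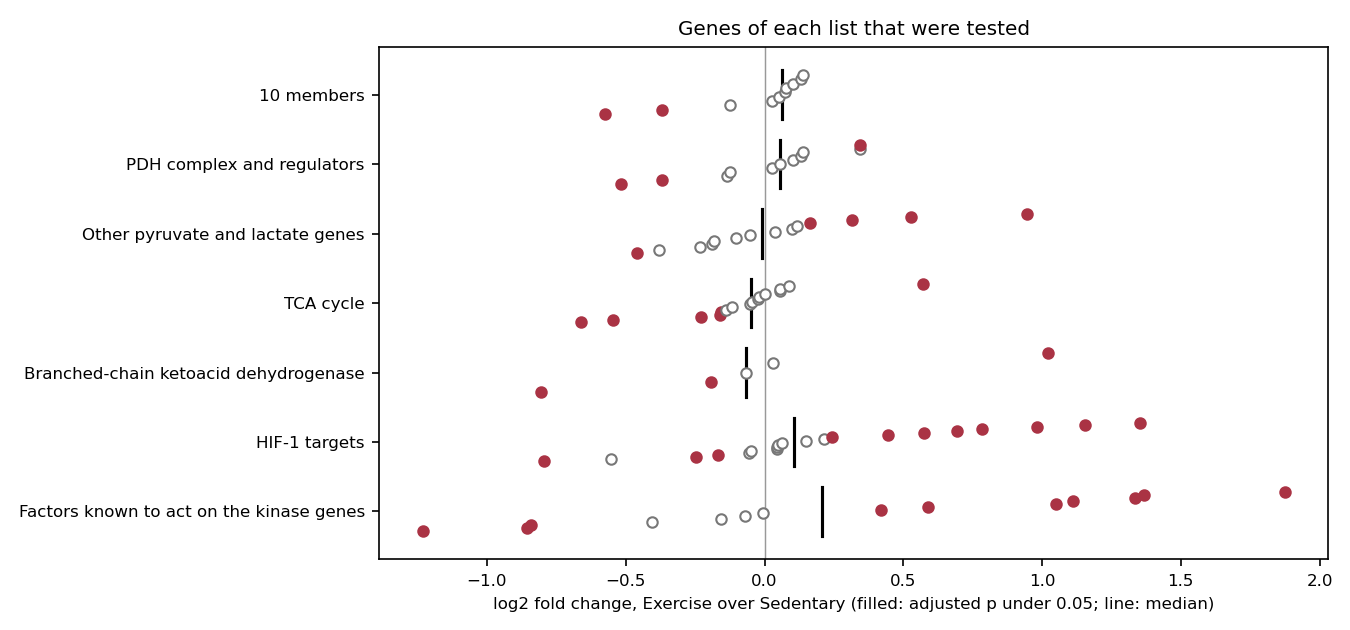
Log2FC, Exercise over Sedentary (horizontal axis), of every tested gene of the 10 members and of the lists for the complex and its regulators, other pyruvate and lactate genes, the TCA cycle, the branched-chain complex, hypoxia-inducible factor targets and factors acting on the kinase genes (filled, adjusted p under 0.05; line, median). Among the members only Slc16a1 and Pdk1 are filled, and both lie to the left of 0.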

How the data were processed

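Total RNA of the livers was extracted with TRI Reagent and libraries were made with an mRNA kit. According to the submitters' processing notes, Bowtie2 2.3.4.3 and RSEM 1.3.1 were used with the mm10 build. The annotation and the setting for strand were not given in the sources used here. The authors deposited expected counts, which RSEM estimates and of which 31.3% were not whole, and FPKM, which they scaled for transcript length and depth.

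Expected counts were rounded and fitted in edgeR 4.0.16 (R 4.3.3) with TMM factors, filterByExpr (minimum count 10), a robust quasi-likelihood fit and a threshold of 0.05 on the adjusted p. Group was the only term, and groups came from the labels. Ratios of FPKM within a library and single genes, on log2(CPM + 0.5), were compared by exact permutation over 924 relabellings. Each numbered library was taken as 1 mouse. Other scalings and filters, DESeq2 1.42.0, limma 3.58.1 on log2(FPKM + 0.1) and limma-voom, a block for the replicate number and omitted livers were tried. Fits were tested on simulated data. With 18745379 to 19324461 counts per library, counting error is small except for genes with few counts.

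The members, the gene lists and the rule for named genes were chosen with earlier results of these data known. Lists were written by hand. Named are the members, the genes of both dehydrogenase complexes, up to 2 genes in each direction with the smallest p in each other list, and genes whose role touches a member. Others are named after their values were seen. Python 3.11.15 with scipy 1.17.1 was used for the rest.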

Additional observations from a re-analysis of the deposited data

Results flagged for a closer look

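In 10 of 130 groups of 6 livers examined, the highest or lowest liver lay further from the rest than Dixon's 95% limit, where chance gives about 1 in 20 (6.5 groups). The numbers in parentheses are the gap to the nearest liver as a share of the group's range. Exercise replicate 3 was the far liver in 6 of them: high for Pdp2 (39.0 against 25.6 CPM in the next liver; 0.706), Mpc1 (276 against 241 CPM; 0.683), Ppara (256 against 186 CPM; 0.696), Ppargc1a (42.1 against 32.5 CPM; 0.698) and the ratio of phosphatase to kinase FPKM (0.112 against 0.0697; 0.795), and low for the Pdk2 share of kinase FPKM (74.6 against 76.5%; 0.641). Sedentary replicate 1 was high for Pdp2 (29.3 against 24.6 CPM; 0.658) and for the ratio of phosphatase to kinase FPKM (0.0813 against 0.0651; 0.720). Exercise replicate 2 was low for Pdha1 (107 against 120.3 CPM; 0.690), and Exercise replicate 6 was high for Bckdha (199.7 against 186 CPM; 0.666).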

How the results depend on the processing

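Slc16a1, Pdk1, Dlat, Bckdk and Ppm1k kept their direction and their call in every setting tried. The number of members called was 2 to 3, and that of all genes 4739 to 5222 with 1 liver left out and 3584 to 5502 otherwise. Scaling by library totals and limma on FPKM turned the sign of Pdha1 (-0.0702 and -0.0687), Mpc1 (-0.0222 and -0.0172), Mpc2 (-0.0222 and -0.02), Ldha (-0.0436 and -0.0456), Dld (-0.038 and -0.0355) and Dbt (-0.0635 and -0.0567), none of them called. These scalings set the median gene at -0.0985 and -0.0932. Pdhx, Bckdha and Nr3c1 passed the test under them, and Bsg and Pdpr did not. With 1 liver left out, Dbt ranged from -0.023 to 0.128 and turned without Sedentary replicate 2 or 4, and Pdp2 ranged from -0.0109, without Exercise replicate 3, to 0.198. Without Exercise replicates 1 and 3, a setting chosen after seeing the data, Pdp2 (-0.0315), Dbt (-0.0128), the kinase to Pdha1 ratio (0.0097) and the phosphatase to kinase ratio (-0.000732) turned. The difference in the Mpc1 to Mpc2 ratio was 0.00127, with -0.00319 from CPM and -0.0222 to 0.0156 with 1 liver left out. Pdhb passed the test with library totals (-0.22), and DESeq2 also called Pklr (-0.38). The causes were not tested.

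The labels do not say whether the replicate numbers pair the livers. Same-numbered livers had correlations of -0.112 to 0.14, and 3 of 6 were nearest to their own number, which does not settle it. With the replicate block, the count of all genes changed was 4956 and that of members was 2, and among the named genes the calls of Me1 (-0.43) and Tpi1 (-0.17) were lost. The sign-flip test of same-numbered differences gave a difference of 5.59 percentage points for the Pdk2 share and -6.01 for the Pdk1 share, each with an exact p of 0.0312, the smallest it can give (adjusted 0.0833).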
